A study of Homo sapiens with 19 samples.

Results

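Of 23367 genes measured by RNA sequencing in SHEP TET21N cells, 20 were chosen for a high level in MYCN-high cells 8 days after doxorubicin was washed out, by a rule on CPM (counts per 1000000 gene counts of a library, spike-in RNAs left out). SHEP TET21N is an established human neuroblastoma line of the substrate-adherent, mesenchymal type that carries a MYCN transgene which doxycycline switches off. The rule asked for a mean of at least 5 CPM in MYCN-high cells at 8 days. It asked for that mean plus 0.5 to be at least 3 times the mean plus 0.5 of untreated MYCN-high cells, of MYCN-high cells after 72 h of drug and of MYCN-high cells at 14 days, and for both 8-day libraries to lie above all 6 of those libraries. The 20 genes were therefore chosen on 8 libraries, and what those libraries show of them is a description without a test. The MYCN-high libraries at 3 days and all 9 MYCN-low libraries took no part in the choice.

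The 10 groups held 19 libraries, duplicates B and C throughout except for the MYCN-low group at 14 days, which held replicate B alone. MYCN-high cells were grown without doxycycline, and every MYCN-low culture carried it. Differences between the states therefore cannot be told apart from effects of doxycycline itself. In each state there were untreated cells, cells after 72 h in 0.1 µg/ml doxorubicin, an anthracycline that poisons topoisomerase II and breaks DNA, and cells 3, 8 and 14 days after its removal. No untreated cells were matched to the later days, so time in culture and the drug cannot be told apart. Total gene counts ran from 16530112 to 27638012 per library. MYCN stood between 576 and 1434 CPM in the 10 MYCN-high libraries and between 14.2 and 32.8 CPM in the 9 MYCN-low libraries, as labelled. All 12 S-type (mesenchymal) neuroblastoma markers on a list, VIM and FN1 among them, were at 1 CPM or more in every library. In bulk RNA, a change in the share of cells that express a gene and a change in RNA per cell cannot be told apart.

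Several of these genes belong to well-known signalling systems. CMKLR1 is the G-protein-coupled receptor through which the secreted protein chemerin attracts leukocytes. BOC and GAS1 are surface co-receptors that help Hedgehog ligands reach Patched, RSPO3 amplifies WNT signalling, and IGFBP3 and IGFBP5 bind insulin-like growth factors outside the cell and are released by several kinds of arrested cells after DNA damage. H19 and DNM3OS are long noncoding RNAs whose primary transcripts also hold microRNAs.

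The microRNAs of those hosts are shown because host RNA was counted here and mature microRNA was not. DNM3OS holds the hairpins of miR-199a-2 and miR-214, and H19 holds that of miR-675. The sequences are RefSeq's for GRCh38.p14, written 5′ to 3′ with the seed (bases 2 to 8) in capitals, and no pair of them shares a seed.
hsa-miR-199a-5p (chr1:172144592-172144614, minus strand): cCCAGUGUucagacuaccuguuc
hsa-miR-199a-3p (chr1:172144554-172144575, minus strand): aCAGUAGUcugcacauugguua
hsa-miR-214-5p (chr1:172138857-172138878, minus strand): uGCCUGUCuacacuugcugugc
hsa-miR-214-3p (chr1:172138816-172138837, minus strand): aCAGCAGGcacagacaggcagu
hsa-miR-675-5p (chr11:1996800-1996822, minus strand): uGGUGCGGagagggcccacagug
hsa-miR-675-3p (chr11:1996768-1996787, minus strand): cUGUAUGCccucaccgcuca
The rows for the hairpin genes MIR199A2, MIR214 and MIR675 were at 0 counts in all 19 libraries. These hairpins lie within the host RNAs and the annotation behind the counts is not given, so 0 counts need not mean that they were absent.

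For promoters, 17 of the 20 genes had RefSeq entries (21 windows from 250 bases before to 50 after a start site, GRCh38.p14). The palindrome TTCNNNGAA, the core that STAT factors bind, occurred for 4 genes, CMKLR1, C7, TYRP1 and BST2, and in 7.66% of all 35116 promoter windows. Those 4 windows are printed because BST2 is a classical interferon target and CMKLR1 has, among the 20 genes, the highest ratio of its 8-day level to the next group of the rule. The response element of interferon-stimulated genes was not among the motifs searched. Capitals mark TTCNNNGAA and, on either strand, TATAAA.
CMKLR1 (chr12:108320593-108320892, minus strand): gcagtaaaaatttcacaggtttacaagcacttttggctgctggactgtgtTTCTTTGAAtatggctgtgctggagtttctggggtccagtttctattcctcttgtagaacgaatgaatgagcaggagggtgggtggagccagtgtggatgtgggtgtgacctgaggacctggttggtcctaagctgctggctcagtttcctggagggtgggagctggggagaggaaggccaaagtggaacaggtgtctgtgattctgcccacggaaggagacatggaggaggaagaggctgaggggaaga
C7 (chr5:40909247-40909546, plus strand): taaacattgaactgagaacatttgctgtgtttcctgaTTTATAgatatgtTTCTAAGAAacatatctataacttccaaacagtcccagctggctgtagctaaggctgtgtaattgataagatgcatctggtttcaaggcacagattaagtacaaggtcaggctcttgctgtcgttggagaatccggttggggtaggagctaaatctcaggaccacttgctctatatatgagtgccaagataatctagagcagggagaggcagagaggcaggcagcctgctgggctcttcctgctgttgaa
TYRP1 (chr9:12693135-12693434, plus strand): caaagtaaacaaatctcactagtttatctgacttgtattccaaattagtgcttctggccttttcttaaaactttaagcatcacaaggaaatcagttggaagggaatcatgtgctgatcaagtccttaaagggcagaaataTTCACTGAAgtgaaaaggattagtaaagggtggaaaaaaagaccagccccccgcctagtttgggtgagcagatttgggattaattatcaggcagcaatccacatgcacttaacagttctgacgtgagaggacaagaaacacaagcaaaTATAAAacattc
BST2 (chr19:17405581-17405880, minus strand): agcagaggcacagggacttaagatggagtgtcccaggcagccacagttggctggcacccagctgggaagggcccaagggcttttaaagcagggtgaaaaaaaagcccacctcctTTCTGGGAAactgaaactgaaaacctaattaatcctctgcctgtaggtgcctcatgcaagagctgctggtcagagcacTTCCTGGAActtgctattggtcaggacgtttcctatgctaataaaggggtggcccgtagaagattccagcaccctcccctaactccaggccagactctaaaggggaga
BST2 had TTCNNNGAA at positions -136 to -128 and at -58 to -50 relative to its start site, while CMKLR1 and C7 each had it at -200 to -192. TATAAA was in windows of 3 genes, ANGPTL1, C7 and TYRP1, and in 11.5% of all windows. The AP-1 site TGANTCA was in windows of 2 genes, BOC and SLITRK6, and in 7.71% of all. The MYC and MAX E-box CACGTG was in no window of the 17 genes and in 7.26% of all. TGACGTCA and GGGANTTCC were likewise in none of the genes' windows, and each was in 1.85% of all windows. All motifs were searched on both strands, and none of these matches shows binding. The median GC content was 57.7% over the genes' 21 windows and 58.7% over all windows. The 20 genes lie on 15 chromosomes, and 18 are annotated as protein-coding.

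**Figure D1:**
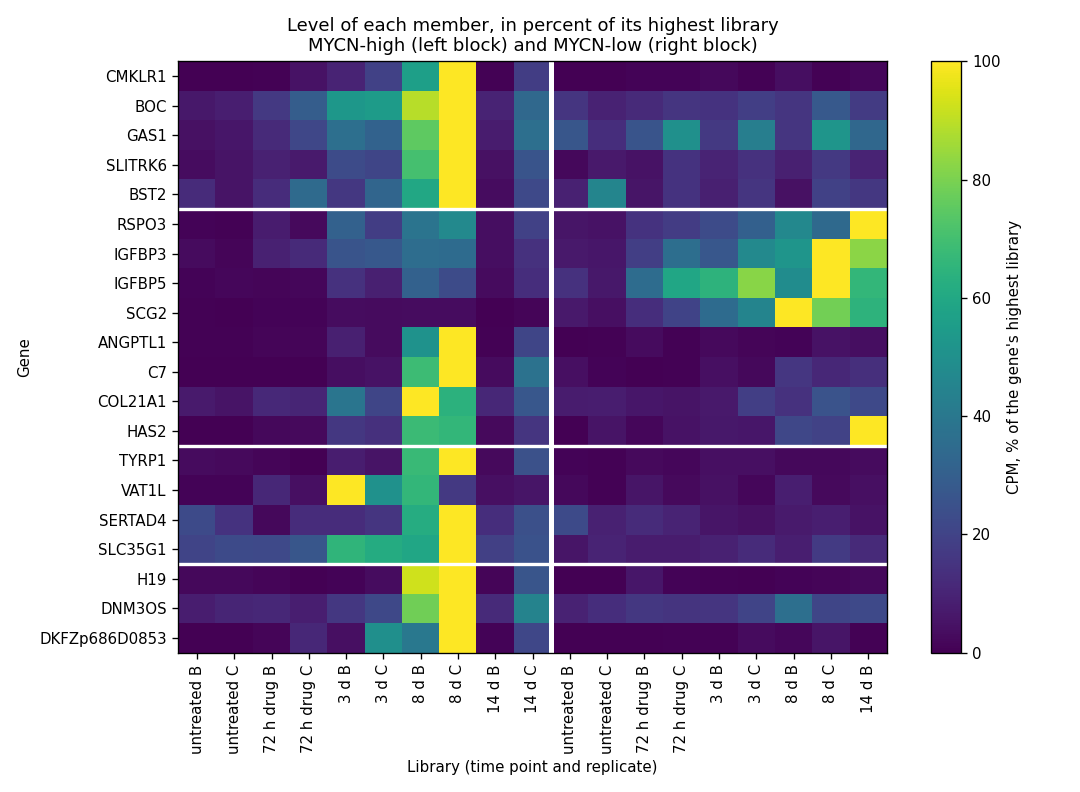
Level of each of the 20 genes (rows, grouped by role) in each of the 19 libraries (columns, named by time point and replicate), as CPM in percent of that gene's highest library, with MYCN-high cells left and MYCN-low cells right of the white line. Most rows are brightest at 8 days in MYCN-high cells, while SCG2, IGFBP3, IGFBP5, RSPO3 and HAS2 have their brightest library among MYCN-low cells and VAT1L at 3 days.

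Among receptors and surface proteins, CMKLR1 had the highest such ratio. In MYCN-high cells its replicates B and C stood at 0 and 0 CPM untreated, 0.255 and 2.47 CPM at 72 h, 5.26 and 10.1 CPM at 3 days, 29.6 and 52.4 CPM at 8 days and 0.227 and 9.56 CPM at 14 days. The MYCN-low libraries ran from 0 to 2.04 CPM at all times. Both 8-day MYCN-high libraries were thus far above every other library, and the 14-day pair was split. The mean at 8 days was at least 611-fold higher than in untreated MYCN-high cells, taking a floor of 3 counts over the untreated group. Relative to the highest of the 3 groups used by the rule, the 14-day one, the 8-day mean was 7.69 times as high (each plus 0.5 CPM).

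The Hedgehog co-receptors BOC and GAS1 had higher levels at each step up to 8 days. BOC stood at 6.79 and 8.74 CPM untreated, 17.2 and 30.4 CPM at 72 h, 54.3 and 56.2 CPM at 3 days, 91.4 and 102 CPM at 8 days and 10.2 and 34.8 CPM at 14 days in MYCN-high cells, and between 9.86 and 28.7 CPM in the MYCN-low libraries. GAS1 read 3.14 and 4.13 CPM, then 8.19 and 14.7, 25.3 and 21.7, 51.9 and 69.0, and 5.17 and 25.2 CPM at the same MYCN-high times. For both genes the 4 earliest MYCN-high groups did not overlap, each lying above the one before. GAS1 reached 36.0 CPM in a MYCN-low library at 8 days, above both MYCN-high libraries at 3 days. CDON, the co-receptor of the same family and not among the 20 genes, stood at 79.3 and 130 CPM untreated, 51.1 and 78.8 CPM at 72 h, 137 and 123 CPM at 3 days, 195 and 262 CPM at 8 days and 119 and 207 CPM at 14 days in MYCN-high cells. Its 14-day replicate C was above its 8-day replicate B, so those groups overlapped. GLI1, a transcriptional target of the pathway, stayed at or below 0.731 CPM in every library, and the ligand gene SHH was at 0 counts in all 19. These other Hedgehog genes were chosen after their values had been seen and carry no test.

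SLITRK6, a leucine-rich repeat protein of the neuronal surface, stood at 0.729 and 1.19 CPM untreated, 2.04 and 1.60 CPM at 72 h, 5.04 and 4.60 CPM at 3 days, 15.5 and 22.0 CPM at 8 days and 1.02 and 5.71 CPM at 14 days in MYCN-high cells. Its MYCN-low libraries ran from 0.469 to 3.69 CPM, all below the MYCN-high libraries at 3 and 8 days. BST2, the interferon-induced protein tetherin that holds budding virus at the surface, stood at 8.13 and 13.5 CPM at 8 days and between 0.455 and 4.65 CPM in the other 8 MYCN-high libraries. One untreated MYCN-low library, replicate C, reached 6.14 CPM, above all libraries except the MYCN-high ones at 8 days. BST2 also stood nearest to the rule's limit, with an 8-day mean 3.08 times the next highest of the 3 groups, that at 72 h.

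**Figure D2:**
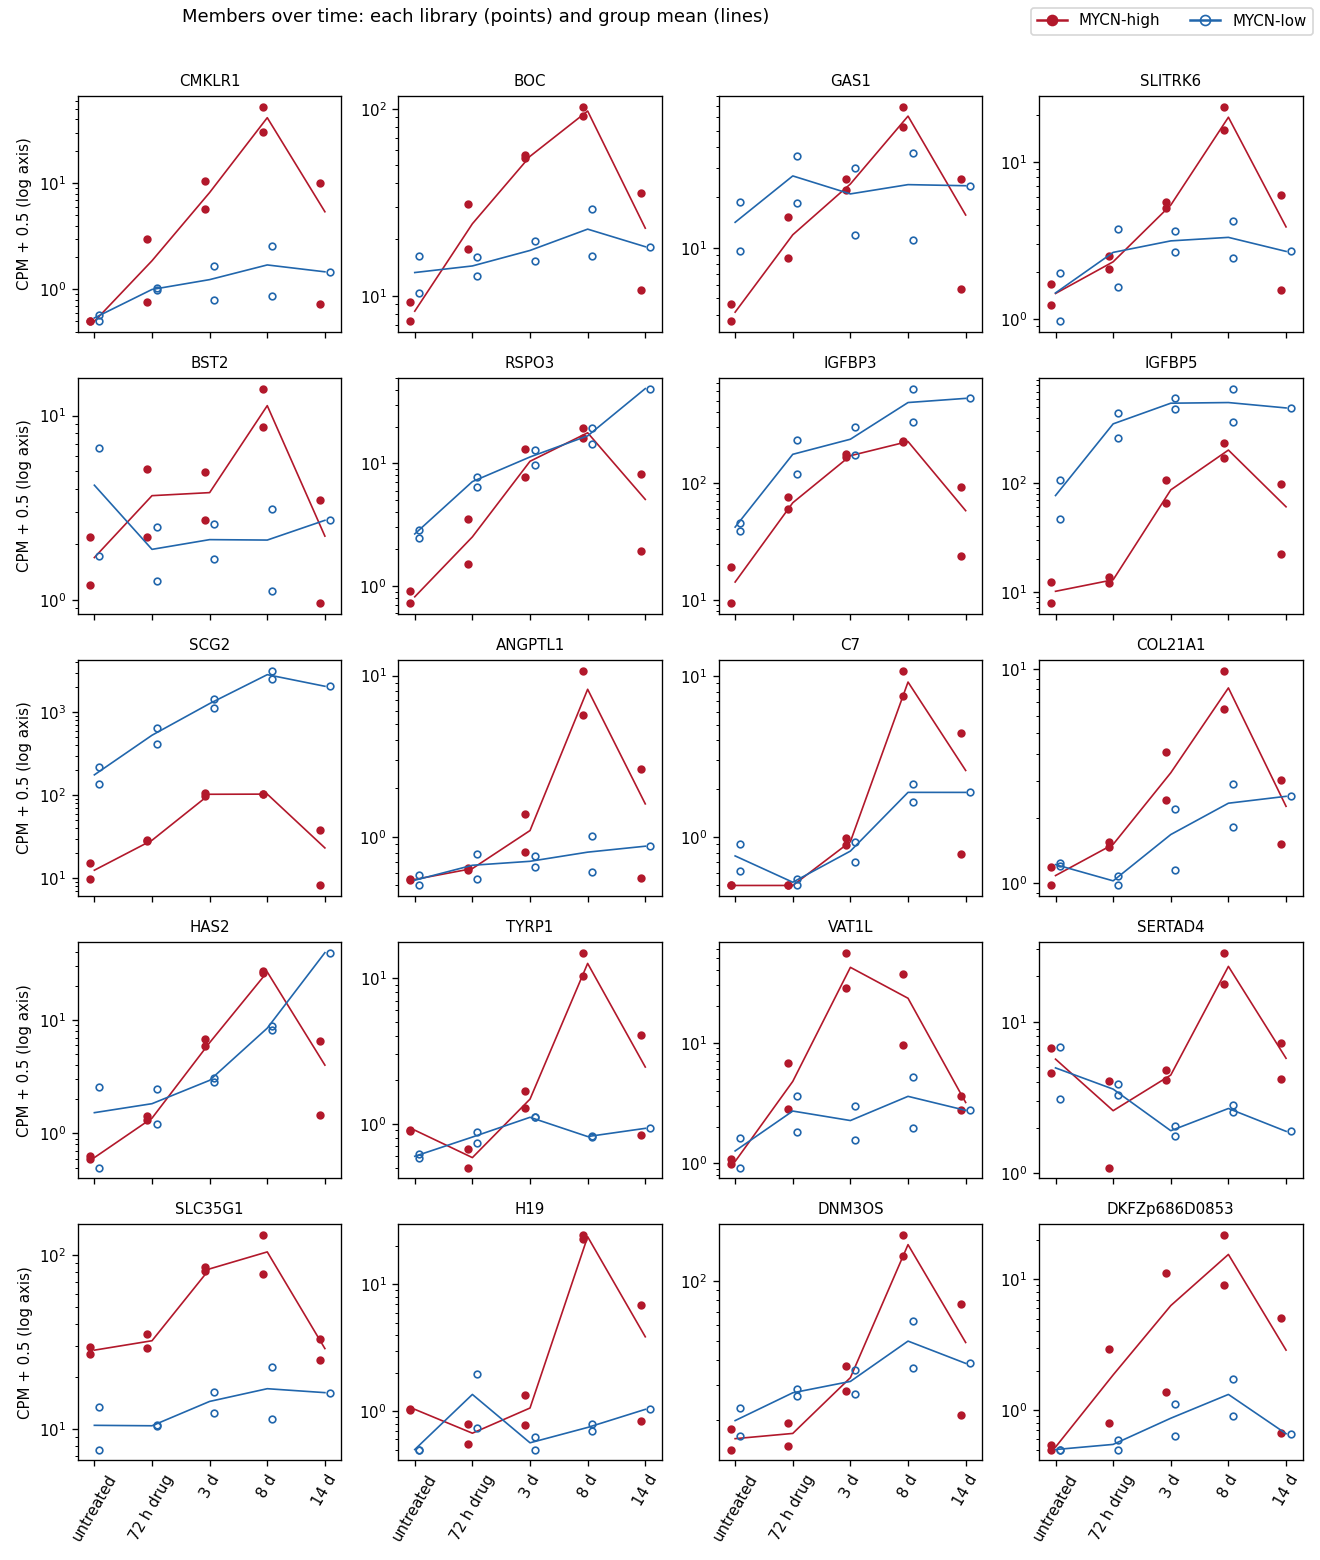
CPM plus 0.5 (log axis) of each of the 20 genes over the 5 time points, filled red for MYCN-high and open blue for MYCN-low cells, each point a library and each line the group means (n = 2, but n = 1 for MYCN-low cells at 14 days). In MYCN-high cells every gene except VAT1L has its highest mean at 8 days, and the 2 libraries at 14 days are often far apart.

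Secreted proteins and matrix genes made up 8 of the 20. RSPO3 stood at 0.410 and 0.220 CPM untreated, 3.01 and 1.02 CPM at 72 h, 12.6 and 7.26 CPM at 3 days, 15.5 and 19.1 CPM at 8 days and 1.42 and 7.75 CPM at 14 days in MYCN-high cells. In MYCN-low cells it stood at 2.34 and 1.97 CPM untreated, 5.97 and 7.25 CPM at 72 h, 9.28 and 12.3 CPM at 3 days, 18.8 and 13.8 CPM at 8 days and 40.4 CPM in the single library at 14 days. The courses of the 2 states overlapped at 3 and 8 days, and at 14 days the MYCN-low library was above both MYCN-high ones. Of the R-spondin receptors, LGR4 stood between 30.3 and 107 CPM in all 19 libraries. LGR5 stood at 60.8 and 53.6 CPM in untreated MYCN-high cells, 1.78 and 2.81 CPM at 72 h, 1.05 and 1.88 CPM at 3 days, 7.35 and 14.9 CPM at 8 days and 48.6 and 19.2 CPM at 14 days. Both LGR5 libraries thus lay below both untreated ones at every later MYCN-high time, including 72 h, when RSPO3 stood at 3.01 and 1.02 CPM. These courses were compared after the values had been seen.

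IGFBP3 stood at 18.6 and 8.87 CPM untreated, 58.9 and 75.1 CPM at 72 h, 164 and 174 CPM at 3 days, 227 and 220 CPM at 8 days and 23.4 and 91.1 CPM at 14 days in MYCN-high cells. IGFBP5 read 7.29 and 11.9 CPM, then 11.4 and 13.3, 107 and 65.8, 232 and 171, and 21.7 and 98.5 CPM at the same times. Both IGFBP3 libraries at 72 h thus already lay above the untreated ones, while the IGFBP5 libraries at 72 h still overlapped with the untreated ones. In MYCN-low cells IGFBP3 ranged from 38.3 to 633 CPM and IGFBP5 from 46.6 to 745 CPM, the lowest in untreated replicate C and the highest in replicate C at 8 days for both. IGF2, a growth factor that they bind, was at 0 counts in all 19 libraries. The annotation behind the counts is not given, so 0 counts need not mean that the RNA was absent. Of the other binding proteins, IGFBP4 stood at 11.9 and 10.0 CPM at 8 days and 3.28 and 1.27 CPM in untreated MYCN-high cells, with 12.5 CPM in 1 library at 3 days. IGFBP6, in contrast, was highest at 72 h in MYCN-high cells by its mean, with 62.0 and 120 CPM there against 18.2 and 16.9 CPM untreated. IGFBP2 was also highest at 72 h by its mean, with 79.4 and 88.2 CPM there, 28.6 and 18.3 CPM untreated and 63.6 and 64.7 CPM at 8 days. IGFBP1 and IGFBP7 did not exceed 0.594 CPM in MYCN-high cells.

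SCG2, the granule protein secretogranin II, had far higher levels in MYCN-low cells. It stood at 14.8 and 9.27 CPM untreated, 27.7 and 28.9 CPM at 72 h, 106 and 99.2 CPM at 3 days, 104 and 102 CPM at 8 days and 7.73 and 37.9 CPM at 14 days in MYCN-high cells. MYCN-low cells had 217 and 136 CPM untreated, 419 and 642 CPM at 72 h, 1115 and 1439 CPM at 3 days, 3184 and 2509 CPM at 8 days and 2063 CPM at 14 days. Every MYCN-low library was above every MYCN-high library.

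HAS2, the plasma-membrane enzyme that makes hyaluronan, stood at 0.0911 and 0.132 CPM untreated, 0.806 and 0.921 CPM at 72 h, 6.26 and 5.38 CPM at 3 days, 26.5 and 25.7 CPM at 8 days and 0.966 and 6.05 CPM at 14 days in MYCN-high cells. In MYCN-low cells it reached 8.31 and 7.67 CPM at 8 days and 38.9 CPM in the 14-day library, its highest value of all 19. The related gene HAS1 was at 0 counts throughout, and HAS3 did not exceed 2.15 CPM. C7, the complement component of the membrane attack complex, was at 0 and 0 counts both untreated and at 72 h, then at 0.388 and 0.484 CPM at 3 days, 7.06 and 10.3 CPM at 8 days and 0.284 and 3.90 CPM at 14 days. Its 8-day mean was at least 130-fold higher than in untreated MYCN-high cells, on the same floor of 3 counts. ANGPTL1, a secreted angiopoietin-like protein, stood at 5.21 and 10.2 CPM at 8 days and at no more than 2.15 CPM in the other MYCN-high libraries. COL21A1, a fibril-associated collagen chain, stood at 9.30 and 5.97 CPM at 8 days and at no more than 3.60 CPM in the others. In these 3 genes the highest library outside 8 days was 14-day replicate C for C7 and ANGPTL1 and 3-day replicate B for COL21A1.

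Among intracellular and membrane-transport proteins, TYRP1, a melanosomal enzyme of pigment cells, stood at 9.78 and 14.5 CPM at 8 days, 0.341 and 3.56 CPM at 14 days and between 0 and 1.16 CPM at the earlier times in MYCN-high cells. All MYCN-low libraries were at or below 0.607 CPM. Other pigment-cell genes were at or near 0, with TYR at 0 counts in all 19 libraries, MLANA at no more than 0.0974 CPM, and SOX10 at 0 counts, while the regulator MITF stood between 20.4 and 79.9 CPM with 38.3 and 31.6 CPM in MYCN-high cells at 8 days. SERTAD4, a SERTA-domain protein, stood at 17.3 and 28.0 CPM at 8 days and between 0.594 and 6.78 CPM in the other 8 MYCN-high libraries. SLC35G1, a membrane transport protein of the solute carrier families, stood at 26.6 and 29.2 CPM untreated, 28.6 and 34.7 CPM at 72 h, 85.0 and 80.2 CPM at 3 days, 77.0 and 130 CPM at 8 days and 24.4 and 32.6 CPM at 14 days. Its MYCN-low libraries ran from 7.15 to 22.1 CPM, below every MYCN-high library.

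VAT1L, a homologue of the vesicle protein VAT1, was the only gene with a higher mean at 3 days than at 8 days. It stood at 0.592 and 0.483 CPM untreated, 6.24 and 2.33 CPM at 72 h, 55.2 and 28.0 CPM at 3 days, 36.6 and 9.12 CPM at 8 days and 2.27 and 3.12 CPM at 14 days in MYCN-high cells. Its 3-day mean was 182% of its 8-day mean, and the 3-day and 8-day groups overlapped. Those groups also overlapped for SCG2, SLC35G1 and DKFZp686D0853. The rule did not look at 3 days, so it admitted a gene with an earlier maximum.

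Both long noncoding RNAs had 8-day levels well above those at 3 days. H19 stood at 0.547 and 0.527 CPM untreated, 0.297 and 0.0485 CPM at 72 h, 0.277 and 0.847 CPM at 3 days, 22.3 and 24.1 CPM at 8 days and 0.341 and 6.39 CPM at 14 days in MYCN-high cells, and at most 1.48 CPM in MYCN-low cells. DNM3OS stood at 13.7 and 17.5 CPM, then 18.9 and 14.3, 27.4 and 36.8, 134 and 171, and 20.6 and 76.5 CPM at the same MYCN-high times, and its MYCN-low libraries ran from 16.2 to 62.7 CPM. DNM3OS lies opposite to DNM3, which stood at 9.01 and 13.6 CPM at 8 days against 4.42 and 1.80 CPM in untreated MYCN-high cells. The strand setting of the counting is not given in the sources used here, so reads of the pair may not be separated. DKFZp686D0853, which RefSeq calls SERTM2, stood at 8.57 and 21.4 CPM at 8 days, 0.887 and 10.7 CPM at 3 days and no more than 4.58 CPM in the other MYCN-high libraries. Its 3-day replicate C lay above its 8-day replicate B, so those groups overlapped.

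The 3-day libraries, which had no part in the choice, divided the genes by timing. At 3 days the mean was under 25% of the 8-day mean for 8 genes, between 25% and 75% for 8, and 75% or more for 4. The late genes included H19 at 2.42%, C7 at 5.02%, ANGPTL1 at 7.71%, TYRP1 at 8.04% and SERTAD4 at 17.5%. The early ones were VAT1L at 182%, SCG2 at 99.6%, SLC35G1 at 79.8% and IGFBP3 at 75.7%. Both 3-day libraries lay above both untreated MYCN-high libraries for 18 of the 20 genes, where 41.9% of the 14793 genes tested did so. They lay above both 72 h libraries for 17 genes, where 22.9% of tested genes did, and above both 14-day libraries for 5 genes, where 38.5% did. Both 8-day libraries lay above both 3-day libraries for 16 genes, where 32.4% of tested genes did. No gene had both 3-day libraries above both 8-day ones, where 31% of tested genes did. The untreated, 72 h, 8-day and 14-day libraries in these counts were used by the rule, so the counts are descriptions.

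**Figure D3:**
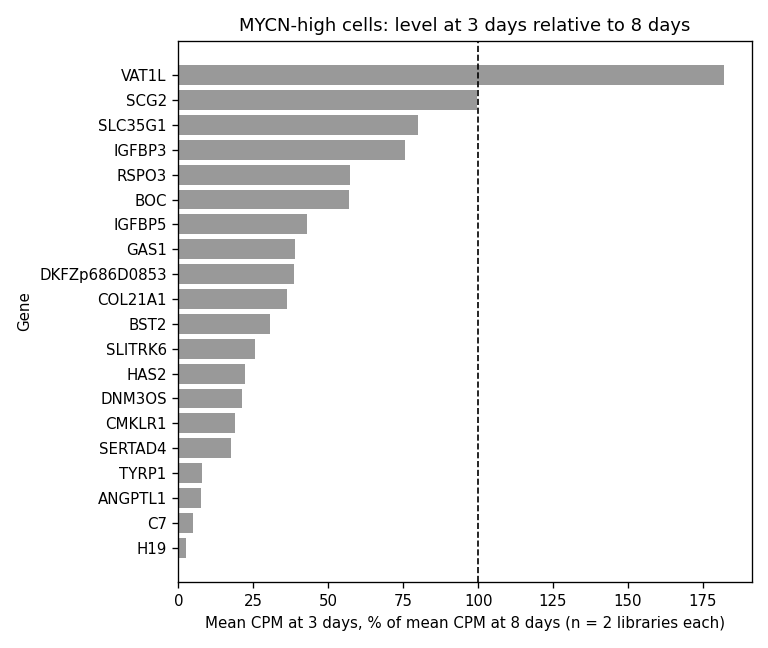
Mean CPM at 3 days as a percentage of mean CPM at 8 days in MYCN-high cells for each of the 20 genes (n = 2 libraries each), with a dashed line at 100%. The bars run from 2.42% for H19 to 182% for VAT1L, the single gene above the line.

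At 14 days the group mean of the genes was between 11.8% and 31.9% of their 8-day mean in MYCN-high cells, which the rule required to be low. The 2 libraries of that group differed in all 20 genes, with replicate C above replicate B. Of the 14793 genes tested, 49.2% were higher in replicate C. The ratio of C to B (each plus 0.5 CPM) had a median of 4.38 over the 20 genes and ran from 1.31 for VAT1L to 13.8 for CMKLR1, while its median over all tested genes was 1. Replicate C lay above both untreated libraries in all 20 genes, where 41.7% of tested genes did, and replicate B in 13, where 37.4% did. Replicate C at 8 days was above replicate B in 14 genes, where 39.2% of tested genes were, with a median ratio of 1.30. The G2 and mitosis list, 25 genes such as MKI67, summed to 9192 CPM in 14-day replicate B and 7644 CPM in replicate C. Spike-in RNAs took 0.144% of the counts in replicate B and 0.537% in replicate C. The part of these in the split was not tested. With replicate B alone as the 14-day group all 20 genes stayed past the 3-fold limit, and with replicate C alone 11 did.

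**Figure D4:**
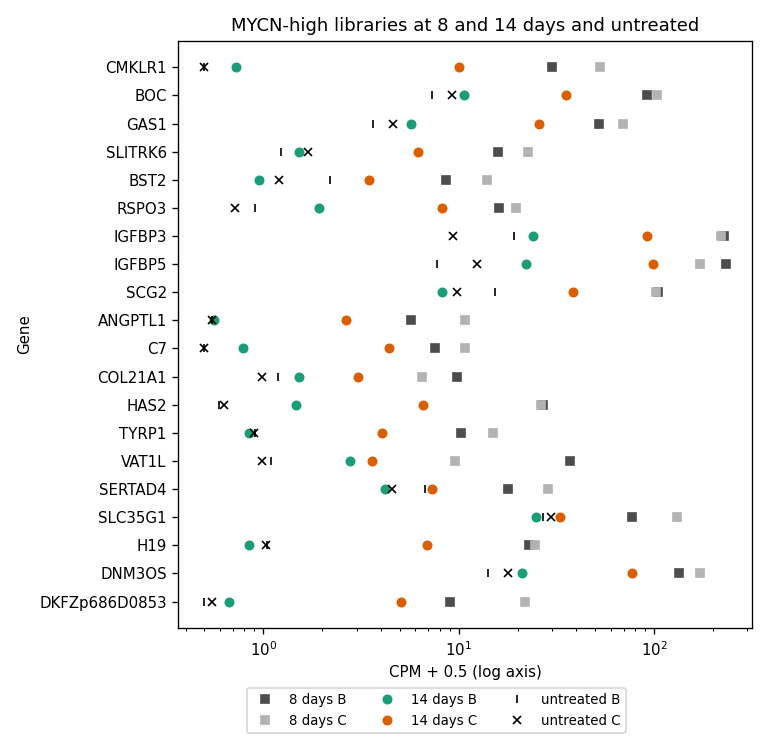
CPM plus 0.5 (log axis) of each of the 20 genes in MYCN-high libraries, with squares for replicates B and C at 8 days, circles for replicates B (green) and C (orange) at 14 days, and black ticks and crosses for untreated replicates B and C. In every row the orange circle lies right of the green one and left of both squares.

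The limit of the rule fell in a continuous range. Just inside it were BST2 at 3.08, DNM3OS at 3.11, SLC35G1 at 3.23, IGFBP3 at 3.32 and IGFBP5 at 3.34 times the highest of the other 3 group means. Just outside it were MAMDC2 at 2.96, WT1-AS at 2.95, SCN9A at 2.93, PLCL1 at 2.91 and TBX2 at 2.89. By level, COL21A1 at 7.64 CPM was the lowest gene inside, and RERG at 4.63 CPM was the nearest gene left out. No test separates these neighbours.

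Cell division moved over the same MYCN-high times. The G2 and mitosis list summed to 10410 and 9030 CPM untreated, 327 and 1052 CPM at 72 h, 2764 and 2898 CPM at 3 days, 6990 and 5950 CPM at 8 days and 9192 and 7644 CPM at 14 days. In MYCN-low cells it summed to 8128 and 9185 CPM untreated, 79.7 and 110.0 CPM at 72 h, 166 and 206 CPM at 3 days, 849 and 1383 CPM at 8 days and 1177 CPM at 14 days. At 8 days the mitosis sums lay below those of untreated cells in both states, with no overlap, and by much more in MYCN-low cells. The adrenergic neuroblastoma list of 16 genes summed to 325 and 360 CPM in MYCN-high cells at 8 days and 132 and 167 CPM in untreated ones. Of that list PHOX2A and DLK1 were at 0 counts in all libraries, and 5 to 7 of its genes reached 1 CPM. In MYCN-high cells at 8 days against untreated, edgeR called 2 of its 8 tested genes higher and 0 lower. Their median log2 fold change was 0.33, well short of the change in the sums. Of the 12 S-type markers 0 were higher and 2 lower, with a median of 0.06. Of all tested genes 4.49% were higher and 4.09% lower there. The neuron list of 12 genes summed to 332 and 273 CPM at 8 days and 123 and 125 CPM untreated, with 615 and 514 CPM at 3 days. The 2 measured RNAs of a list of RNA-quality and mitochondrial RNAs summed to 4148 and 4876 CPM at 8 days and 2356 and 2642 CPM untreated. The part of these changes in the 8-day levels was not tested.

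MYCN-low cells gave a comparison that the choice did not use, of 8 days against untreated cells, tested by edgeR's quasi-likelihood method with Benjamini-Hochberg adjustment over all 14793 tested genes. There 6 of the 20 genes were higher and none lower at an adjusted p under 0.05, where 10.2% of tested genes were higher and 14.6% lower. The median log2 fold change was 2.23 over the 20 genes and -0.02 over all tested genes. It was 1.92 over the 20 with H19 and DKFZp686D0853, which had 0 counts in untreated cells, set at the lower bounds that the floor of 3 counts gives. SCG2 rose by 3.99 ± 0.50 (log2 fold change ± approximate SE; adjusted p 6.28e-05, edgeR), IGFBP3 by 3.50 ± 0.54 and IGFBP5 by 2.84 ± 0.56. RSPO3 rose by 2.88 ± 0.58, HAS2 by 2.76 ± 0.83 and DNM3OS by 1.30 ± 0.44 (adjusted p 0.0414, edgeR). In these 6 genes both libraries at 8 days lay above both untreated ones. By CPM that held for 15 of the 20 genes, where it held for 29.9% of tested genes. CMKLR1 did not pass (adjusted p 0.123, edgeR), with 2.04 and 0.362 CPM at 8 days and 0 and 0.0773 CPM untreated. Without untreated replicate B or 8-day replicate B, HAS2 and DNM3OS lost their calls, and HAS2 also lost it without 8-day replicate C. HAS2 had 8.31 and 7.67 CPM at 8 days and 0 and 2.05 CPM untreated, so its size rested on the untreated replicate used. Its log2 value was 1.85 without untreated replicate B, and against that replicate alone the 8-day level was at least 45.2-fold higher (floor of 3 counts in the library). When libraries were scaled by their spike-in counts, no gene kept a call in this or any comparison below, and the median log2 fold change of all tested genes here moved to 1.00. Spike-ins took 0.367% and 0.12% of counts in untreated replicates B and C and 0.089% and 0.0961% at 8 days. The scaling therefore differed between the untreated duplicates themselves. The log2 values of the 6 genes were larger under that scaling, for example 5.17 for SCG2, 4.54 for IGFBP3 and 4.12 for IGFBP5.

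Part of this rise was in place at earlier MYCN-low times. After 72 h of drug 4 genes were higher than in untreated MYCN-low cells and none lower, where 10.2% of tested genes were higher and 12.1% lower. They were IGFBP5 (2.28 ± 0.55, log2), IGFBP3 (2.13 ± 0.51), SCG2 (1.65 ± 0.46) and H19. H19 had 36 counts at 72 h, 31 of them in replicate B, and 0 untreated, at least 12.3-fold higher on the floor of 3 counts over the group, and its call was lost without 72 h replicate B or without either untreated replicate. IGFBP3 lost its call without 72 h replicate C, and SCG2 and IGFBP5 lost theirs without that replicate or without untreated replicate C.

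At 3 days 4 genes were higher than in untreated MYCN-low cells and none lower, where 10.5% of tested genes were higher and 12.7% lower. SCG2 (2.92 ± 0.48, log2), IGFBP5 (2.92 ± 0.56), IGFBP3 (2.55 ± 0.52) and RSPO3 (2.38 ± 0.58) passed. These comparisons share the untreated MYCN-low libraries. Between 8 days and 72 h, 2 genes were higher and none lower, where 1.97% of tested genes were higher and 1.34% lower. SCG2 rose by 2.34 ± 0.47. C7 had 64 counts at 8 days and 1 count at 72 h, a ratio of 57.0 (95% counting interval 9.86 to 2284). C7 lost its call without any 1 of the 4 libraries, and SCG2 lost it without each of them except 8-day replicate C.

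Between 8 and 3 days in MYCN-low cells edgeR called none of the 20 genes, 1 had an unadjusted p under 0.05, and DESeq2 called 0. Of all tested genes, 0.662% were higher and 0.0406% lower there. For the single 14-day library against 8 days the spread came from the other groups, and with 0.0135% of all tested genes called higher and 0% lower the comparison could show little of the 20 genes. There edgeR called none of them, 2 had an unadjusted p under 0.05, and DESeq2 called 0. HAS2 and RSPO3 were the genes whose MYCN-low 14-day value lay above all other MYCN-low libraries, with 38.9 and 40.4 CPM.

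**Figure D5:**
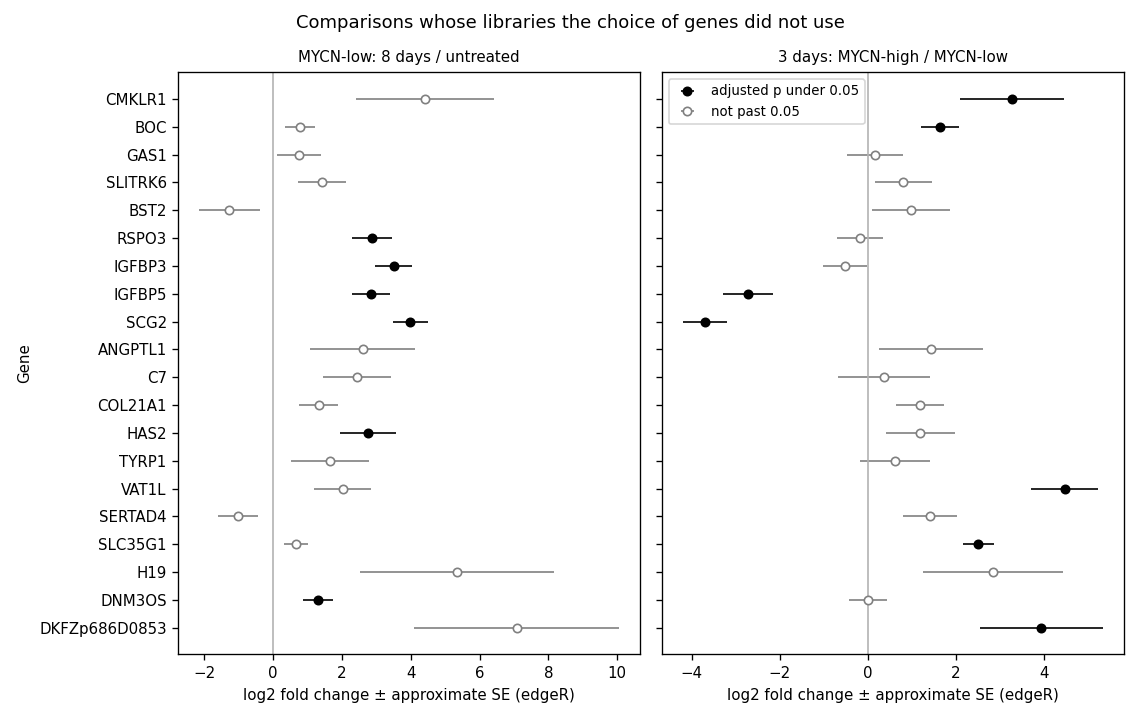
Log2 fold change with approximate SE from edgeR for each of the 20 genes, in MYCN-low cells at 8 days against untreated (left) and in MYCN-high against MYCN-low cells at 3 days (right), with filled points for an adjusted p under 0.05. The left values of H19 and DKFZp686D0853 are against 0 counts and depend on the fit's prior count; 6 points are filled on the left, all above 0, and 7 on the right, 5 above and 2 below 0.

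The states were compared with each other at 3 days, where neither group had been used in the choice. Of the 20 genes 5 were higher and 2 lower in MYCN-high cells, where 17% of tested genes were higher and 14.8% lower. SLC35G1 was higher by 2.51 ± 0.35 (log2; adjusted p 7.89e-05, edgeR), VAT1L by 4.47 ± 0.76 and BOC by 1.65 ± 0.43. DKFZp686D0853 (3.94 ± 1.40) and CMKLR1 (3.27 ± 1.19; adjusted p 0.0484, edgeR) passed narrowly. SCG2 was lower by 3.69 ± 0.50 (log2 fold change -3.69) and IGFBP5 by 2.72 ± 0.56 (log2 fold change -2.72). The BOC call was lost without MYCN-low replicate B. The DKFZp686D0853 call was lost by DESeq2, without either MYCN-low replicate and without MYCN-high replicate C, where its log2 value was 1.24. The CMKLR1 call was lost by DESeq2 and without any 1 of the 4 libraries. With spike-in scaling the log2 values here were -1.79 for SCG2, -0.65 for IGFBP5 and between 3.50 and 6.30 for the 5 genes above 0, while the median of all tested genes moved to 1.82. DNM3OS did not pass, with a log2 difference of 0.01 ± 0.43 between the states at 3 days. By CPM both MYCN-high libraries lay above both MYCN-low ones for 13 genes, where 40.2% of tested genes did, and below both for 2, where 30.5% did.

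At 8 days the MYCN-high libraries were chosen to be high, so the gap between the states there is a description. Both MYCN-high libraries lay above both MYCN-low libraries for 16 genes, where 38.4% of tested genes did. SCG2, IGFBP3 and IGFBP5 ran the other way, a direction found for 37.7% of tested genes, and RSPO3 overlapped. H19 was 31.8 times and CMKLR1 24.4 times as high in MYCN-high as in MYCN-low cells (means plus 0.5 CPM). TYRP1 was 15.5 times as high on the same scale.

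The other genes of the pathways were read in MYCN-high cells at 8 days against untreated cells, a contrast the rule had used for the 20 genes, and where 4.49% of tested genes were higher and 4.09% lower. Of 31 other interferon-stimulated genes 7 were higher and none lower, including the signal transducers STAT2 (1.07 ± 0.21, log2) and IRF9 (0.97 ± 0.27) and the interferon-induced genes GBP2 (1.26 ± 0.33) and IFI44 (1.46 ± 0.38). Of these 7 genes, 2 (IFI44 and IFI44L) had their highest MYCN-high mean at 8 days. STAT2 averaged 46.2 CPM at 72 h and 25.2 CPM at 8 days, and GBP2 averaged 81.8 CPM at 3 days and 67.2 CPM at 8 days. Of 12 other WNT ligands and antagonists, the antagonist DKK2 was higher (3.96 ± 0.89), and the antagonist DKK1 (-2.00 ± 0.33) and the ligand WNT5B were lower. WNT5B had 1 count over both 8-day libraries and 30 counts untreated, a ratio of 0.0376 (95% counting interval 0.000922 to 0.226). Of 27 other collagens and matrix proteins 2 were higher, the laminin chain LAMA4 (1.82 ± 0.46) and the proteoglycan LUM (1.68 ± 0.45). LAMA4 averaged 142 CPM at 72 h, 121 CPM at 3 days and 25.4 CPM at 8 days, so its highest mean was earlier. The collagens COL12A1 (-2.70 ± 0.43) and COL8A1 (-1.62 ± 0.48), the matrix protein POSTN (-1.48 ± 0.37) and the crosslinking enzyme LOX (-1.82 ± 0.51) were lower. These 16 calls, 10 higher and 6 lower, depended on each of the 4 libraries. Without untreated replicate B, 0 genes were called higher and 2 lower, so all 7 interferon-stimulated genes, DKK2, LAMA4 and LUM lost their calls. Without untreated replicate C, 2 were higher and 7 lower, and without either 8-day replicate 2 were higher and 2 lower.

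The other chemerin genes had low levels in MYCN-high cells. The ligand gene RARRES2 did not exceed 1.52 CPM in any library and read 0 counts in both MYCN-high libraries at 8 days. The related receptor gene CCRL2 did not exceed 0.217 CPM. GPR1, the other chemerin receptor, stood at 1.07 and 0.210 CPM in MYCN-high and 11.1 and 7.02 CPM in MYCN-low cells at 8 days, the opposite order to CMKLR1.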

How the data were processed

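The authors deposited whole-number read counts for 23367 gene symbols and 92 spike-in RNAs in 19 libraries. Per the labels' protocols, ERCC spike-in mix was added, ribosomal RNA was removed and libraries were made with a ScriptSeq kit, though the labels' molecule field says polyA RNA. The submitters' processing notes name STAR 2.4.0h1, HTSeq and hg19. The annotation and strand setting are not given in the sources used here. The design text calls the replicates biological duplicates.

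CPM was computed without spike-ins. For tests, edgeR 4.0.16 in R 4.3.3 used the counts with TMM scaling, filterByExpr (14793 genes, all 20 among them), 1 coefficient per group (9 residual degrees of freedom, coefficient of variation 0.204) and Benjamini-Hochberg adjustment at 0.05. For the lone MYCN-low library at 14 days the spread was taken from the other groups. A test of the fit on simulated data is not reported here, and no call rests on it. Floors and intervals cover counting error only.

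The genes, lists and rule were chosen with earlier results of these data known. Genes named are all 20, those nearest the rule's limits, and up to 4 called genes in each list that holds 1 of the 20. Named after their values were seen were other Hedgehog, R-spondin, IGF-binding, pigment, hyaluronan, microRNA and chemerin genes, and further called genes of the lists. Alternatives were other scalings (DESeq2 1.42.0, spike-ins), no filter, other tests, fits on fewer groups, a replicate block, other limits of the rule and each library left out. Sequences came from RefSeq tables (GRCh38.p14), and counts were joined to them by symbol only. For the gene annotation, 19 matched by current symbol and DKFZp686D0853 by an older name. For promoters only the deposited symbols were used, and chromosome 8 was left out for the 20 genes.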

Additional observations from a re-analysis of the deposited data

Results flagged for a closer look

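In 4 cases every MYCN-high library moved one way from untreated cells and every MYCN-low library the other way, by log2 of mean CPM plus 0.5. Such opposite moves without overlap were found for 3 of the 20 genes at 72 h, 0 at 3 days and 1 at 8 days, and for 7.58%, 7.29% and 8.68% of the 14793 tested genes at those times. At any of the 3 times they were found for 4 of the 20 genes and 17.4% of tested genes. The rule placed both MYCN-high libraries at 8 days above both untreated ones, so there only the MYCN-low move was free. The shares of tested genes have no such limit, so at 8 days and over the 3 times they are not a like comparison. The MYCN-high untreated and 72 h libraries were also used by the rule. None of these differences between the states was tested, and 3 of them rest on levels under 2 CPM. SERTAD4 at 8 days was higher by 2.03 in MYCN-high cells and changed by -0.89 in MYCN-low cells, a difference of 2.92. H19 at 72 h changed by -0.62 in MYCN-high cells and 1.44 in MYCN-low cells, a difference of -2.07. TYRP1 at 72 h changed by -0.63 in MYCN-high cells and 0.44 in MYCN-low cells, a difference of -1.06. COL21A1 at 72 h changed by 0.48 in MYCN-high cells and -0.25 in MYCN-low cells, a difference of 0.74.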

How the results depend on the processing

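The rule's choice of genes depended on its limits and on single replicates. It found 59 genes at a fold of 2 and 10 at a fold of 4, 31 with CPM scaled by spike-ins (11 shared with the 20), and from 9 genes without replicate B to 42 without replicate C (18 of the 20 among them). Scaled by spike-ins, edgeR called 0 members in each comparison and 0 genes of the pathway lists. Spike-ins took between 0.0116% and 0.537% of counts, and the median log2 change of all genes moved to between -0.61 and 1.82. Their share could differ widely between duplicates, with 0.0116% and 0.191% in MYCN-high cells at 72 h, though MYCN-low cells at 8 days had 0.089% and 0.0961%. Without the filter on low counts edgeR called more members, 17 for MYCN-low cells at 8 days against untreated, 10 against 72 h, 3 against 3 days and 2 for 14 against 8 days. It called 9 at 72 h and 13 at 3 days against untreated MYCN-low cells, 11 for MYCN-high against MYCN-low cells at 3 days, and 34 genes of the pathway lists. That fit, like the spike-in fit, estimated an infinite prior degrees of freedom, in place of 6.29, so a gene's own spread had no weight in it.

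With each library left out in turn, edgeR called from 4 to 7 members at 8 days against untreated MYCN-low cells (6 with all libraries), 0 to 1 against 72 h (2), 1 to 3 at 72 h (4) and 4 to 6 at 3 days (4). It called 4 to 6 for MYCN-high against MYCN-low cells at 3 days (7), and 2 to 9 genes of the pathway lists (16). Over 23 calls of single members and 10 alternatives each, 54 of 230 values missed the threshold and 0 changed direction. With a replicate block, edgeR called 8 members at 8 days against untreated MYCN-low cells, 3 against 72 h, 5 at 72 h, 5 at 3 days, 7 for MYCN-high against MYCN-low cells at 3 days and 21 genes of the pathway lists. B and C deviations correlated at 0.10 to 0.32 within the comparisons of 2 full groups, and between -0.21 and 0.32 over all pairs of groups, with 22 of 36 pairs over 0.1. The labels tie the letters to no shared source, and the correlations did not hold in every pair, so the fit without the block was kept. DESeq2 called 9 members at 8 days against untreated MYCN-low cells. Genes of few counts, such as C7, H19 and CMKLR1 in MYCN-low cells, are limited by depth.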
